A study of Mus musculus with 10 samples.

Results

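The serpin superfamily was followed here across the whole esophagus of mice with an experimental allergic inflammation. Its members were taken as the protein-coding genes whose symbol is Serpin followed by a clade letter from a to i and a number, which gave 61 of the 54446 genes in the table and 61 of its 21969 protein-coding genes. All animals were wild-type (WT) C57BL/6 mice. The OXA group was taken through a model of eosinophilic esophagitis driven by the skin-sensitizing hapten oxazolone, and the vehicle group received the control treatment. The sources used here do not give the dose, schedule or route, nor the age or sex of the animals. RNA from whole esophagus was sequenced by CEL-Seq, a method that tags each polyadenylated transcript at its 3′ end. There were 5 vehicle libraries, A1 to A5, and 5 libraries of the OXA group, C1 and D1 to D4. The title letter differs between the groups and its meaning is unknown here, so any effect that goes with the letter and the OXA treatment cannot be told apart, and no batch term was fitted. Nothing in the labels says whether each library came from a separate mouse, so the p-values reflect variation among libraries, which may be technical.

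Most serpins inhibit serine proteases, and some inhibit cysteine proteases. The protease cuts an exposed loop of the serpin, the cut loop swings into the body of the protein, and the protease is dragged along and left distorted in a covalent complex. Most clade A serpins are secreted, many of them by the liver. By contrast, most clade B serpins lack a signal peptide and act inside cells, several of them in stratified epithelium and in leukocytes. A few members, such as maspin, PEDF and Hsp47, no longer inhibit proteases and do other work.

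Values below are normalized read counts, that is, reads per gene divided by a depth factor per library. The libraries held 5094159 to 12108822 reads in the vehicle group and 3675479 to 8364227 in the OXA group. A gene was tested when its mean over the 10 libraries was at least 5. The test was limma on log2(value + 1), with Benjamini-Hochberg adjustment over all 14712 genes tested and a threshold of 0.05 on the adjusted p. Of those genes, 2309 were higher and 2085 lower with OXA, so that 52.5% of the calls were higher. Scaling to CPM, the share of a library's reads, moved that percentage to 65.3% and shifted the median log2 change over all tested genes from -0.01 to 0.11. Markers of stratified epithelium were present in every library, and the 8 suprabasal keratinocyte markers alone took 12.1% ± 1.98 of a vehicle library (SD, n = 5).

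Of the 61 serpins, 43 had at least 1 read, 26 passed the filter on low values, 17 had reads but stayed under it, and 18 were at 0 in every library. Among the 26 tested, 4 rose (Serpina3n, Serpina3g, Serpina3m and Serpinb9) and 7 fell (Serpinb13, Serpinb7, Serpina9, Serpinb12, Serpinb3a, Serpinf1 and Serpinb8) with OXA. That made 11 of 26 called, or 42.3%, against 29.9% of all tested genes called in either direction. The background was 15.7% called higher and 14.2% called lower. The groups did not overlap for 8 of the 26 serpins, 4 with every OXA library above and 4 with every OXA library below the vehicle libraries, against 22.4% of all tested genes. The median change of the 26 was -0.37 on the log2 scale, against -0.01 over all tested genes. Serpina3g and Serpina3m averaged under 5 in the vehicle group and passed the filter through their OXA libraries. Serpinb13 averaged 0.476 in the OXA group and passed it through its vehicle libraries. In bulk tissue, fewer cells of a type and less RNA per cell cannot be told apart.

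**Figure D1:**
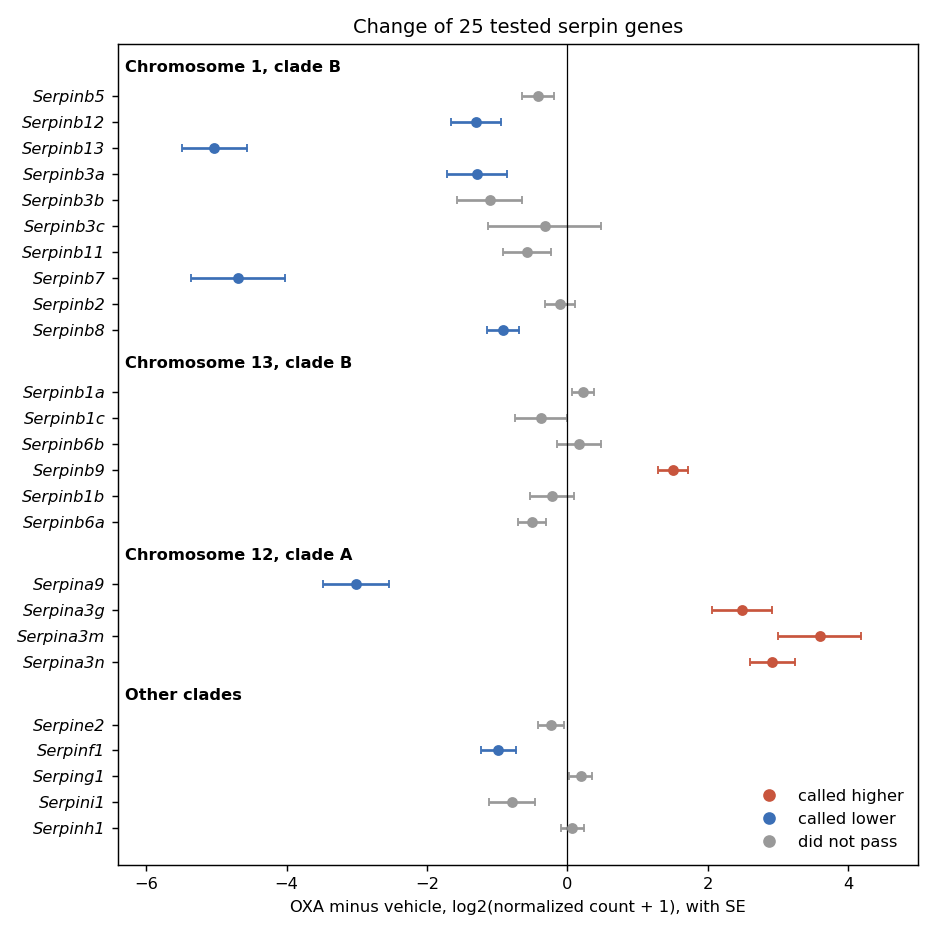
Change of 25 of the 26 tested serpins with OXA against vehicle (x axis, log2 scale of value + 1; bars are standard errors), grouped by chromosome cluster, with genes called higher in red and lower in blue. The 10 tested genes of the chromosome 1 cluster all lie to the left of 0, and Serpina3n, Serpina3g and Serpina3m lie farthest to the right.

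The serpins were not spread evenly over the genome. With neighbours joined when their starts lay within 1 Mb, 23 clade A members formed a cluster on chromosome 12 (chr12:103614486-104414629, build GRCm38), 15 clade B members one on chromosome 13 (chr13:32841792-34002794) and 11 clade B members one on chromosome 1 (chr1:106861173-107610784). Serpinf1 and Serpinf2 were neighbours on chromosome 11, Serpini1 and Serpini2 on chromosome 3, and 8 members stood alone. Counts are given by cluster, and differences between clusters were not tested. On chromosome 1, 5 of 10 tested members fell and none rose, against 14.2% of all tested genes called lower. Of those 5, Serpinb13 was tested through its vehicle libraries. On chromosome 12, 3 of 4 tested members rose, against 15.7% of all tested genes called higher, and Serpina9 fell. Of those 3, Serpina3g and Serpina3m were tested through their OXA libraries. On chromosome 13, 1 of 6 tested members rose and none fell, a share close to the 15.7% of all tested genes called higher. Gene ends in the table lay 300 bases past the GENCODE M21 3′ end for all 61 members.

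Every tested gene of the chromosome 1 cluster had a negative change with OXA, from -5.03 for Serpinb13 to -0.11 for Serpinb2, with a median of -1.01 on the log2 scale. The changes of Serpinb13, Serpinb7, Serpinb12, Serpinb3a and Serpinb8 passed the test. Those of Serpinb5, Serpinb3b, Serpinb3c, Serpinb11 and Serpinb2 did not. The sign of the 2 smallest was not stable: Serpinb2 was at 0.021 with CPM scaling, and Serpinb3c was at 0.39 with edgeR and 0.40 with DESeq2.

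Serpinb13 (ENSMUSG00000048775.10; chr1:106980984-107001495, + strand), also called headpin or hurpin, is a keratinocyte inhibitor of lysosomal cysteine cathepsins. The vehicle libraries A1 to A5 held 58.5, 27.0, 55.5, 25.97 and 68.7 normalized counts of it. The OXA libraries C1 and D1 to D4 held 0, 1.42, 0, 0.96 and 0. Every OXA library lay below every vehicle library, and 3 OXA libraries had no read of the gene. The change was -5.03 ± 0.47 (SE; adjusted p = 5.24e-06). It rested on 248 reads against 3, a level 68.5-fold lower after depth correction, with a 95% exact interval of 23.2 to 335 that covers counting error only.

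Serpinb7 (megsin; ENSMUSG00000067001.11; chr1:107399655-107452989, + strand) is expressed in the upper epidermis, and its loss in humans causes a keratoderma of palms and soles. It stood at 417, 335, 581, 316 and 508 in A1 to A5 and at 28.2, 0.71, 30.8, 14.4 and 44.7 in C1 and D1 to D4. The groups did not overlap, and D1 was far below the other OXA libraries. The mean went from 431 ± 113 to 23.8 ± 16.8 (SD, n = 5 each), 18.2-fold lower, with a change of -4.70 ± 0.67 (SE; adjusted p = 1.66e-04).

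Serpinb12 (ENSMUSG00000059956.14; chr1:106934449-106957380, + strand), an inhibitor of trypsin-like proteases, was at 7947, 6219, 10322, 6347 and 11177 in A1 to A5. In C1 and D1 to D4 it was at 4019, 1289, 6572, 2754 and 4202. D2 reached into the vehicle range, and the other 4 OXA libraries were below it. The change was -1.30 ± 0.35 (SE; adjusted p = 0.0125).

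Serpinb3a (ENSMUSG00000044594.14; chr1:107045287-107052303, − strand) belongs to the mouse counterparts of the human squamous cell carcinoma antigens, which inhibit cathepsins and related proteases. It was at 8133, 8097, 12497, 6881 and 9208 in A1 to A5 and at 4794, 1089, 9664, 2802 and 4187 in C1 and D1 to D4. D2 was above 4 of the 5 vehicle libraries, while the other OXA libraries were below all of them. The change of -1.29 ± 0.43 (SE; adjusted p = 0.0350) was the least steady of the 11 calls. It missed the threshold in 11 of 25 alternative settings, among them edgeR (adjusted p = 0.085) and the fits without A1, A2, A3, A5, D3 or D4, with adjusted p from 0.00248 to 0.085 over all 25.

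Serpinb8 (ENSMUSG00000026315.13; chr1:107590006-107610784, + strand), an inhibitor of furin, was at 125, 174, 195, 125 and 223 in A1 to A5. The OXA libraries C1 and D1 to D4 were at 88.5, 71.1, 130.3, 63.2 and 92.6. D2 lay just above the lowest vehicle libraries and the other 4 OXA libraries below them. The change was -0.92 ± 0.22 (SE; adjusted p = 0.00734).

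The genes of the cluster that did not pass the test lay between and beside those that did. Serpinb5 (maspin), which does not inhibit proteases, averaged 1241 ± 207 in the vehicle and 968 ± 314 in the OXA group, a change of -0.42 ± 0.23 (SE; adjusted p = 0.185). Serpinb11 went from 861 ± 195 to 674 ± 480 (-0.58 ± 0.34; adjusted p = 0.222) and Serpinb3b from 196 ± 35.4 to 119 ± 101 (-1.11 ± 0.46; adjusted p = 0.0821). Both were highest of all 10 libraries in D2, at 1492 for Serpinb11 and 286 for Serpinb3b. Without D2 both passed the test, Serpinb11 with -0.92 (adjusted p = 0.00996) and Serpinb3b with -1.53 (adjusted p = 0.00616). Serpinb2, the urokinase inhibitor PAI-2, averaged 255 ± 43.4 and 245 ± 87.1 (-0.11 ± 0.22; adjusted p = 0.741).

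Serpinb3c had the largest standard error of the log2 change among the 10 tested genes of the cluster. It was at 819, 588, 635, 204 and 283 in A1 to A5 and at 399, 28.4, 1883, 464 and 560.3 in C1 and D1 to D4. D1 was the lowest and D2 the highest of all 10 libraries, and the groups overlapped. The OXA mean was above the vehicle mean (667 ± 709 against 506 ± 256), while the change on the log2 scale was -0.33 ± 0.81 (SE; adjusted p = 0.791).

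Some of these genes could share reads. Serpinb3b and Serpinb3c overlap by 7461 bases on the same strand, and in the last 500 bases of their transcripts 14.7% and 12.6% of 40-base words also occur in another gene. For Serpinb3a that share was 7.10%. Serpinb2 overlaps Serpinb10 by 6776 bases on the same strand, and 24.2% of its words occur there. The sources used here do not say how reads matching 2 genes were counted, so the values of these genes are uncertain to that extent. Serpinb12, Serpinb13, Serpinb7, Serpinb8, Serpinb5 and Serpinb11 shared no such word.

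Serpinb10 lies within the same cluster but is typed as a polymorphic pseudogene in the table, and therefore is not among the 61. It was at 329, 338, 434, 447 and 475 in A1 to A5 and at 133, 97.4, 107, 146 and 223 in C1 and D1 to D4. All OXA libraries were below all vehicle libraries, and the change was -1.56 ± 0.21 (SE; adjusted p = 1.01e-04). The remaining 6 family entries of other gene types were also pseudogenes. Of them, Serpinb1-ps1 averaged 2.78 ± 4.50 in the OXA group and 0 in the vehicle group, and Serpina3h averaged 0.194 in the vehicle group and 0 in the OXA group.

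**Figure D2:**
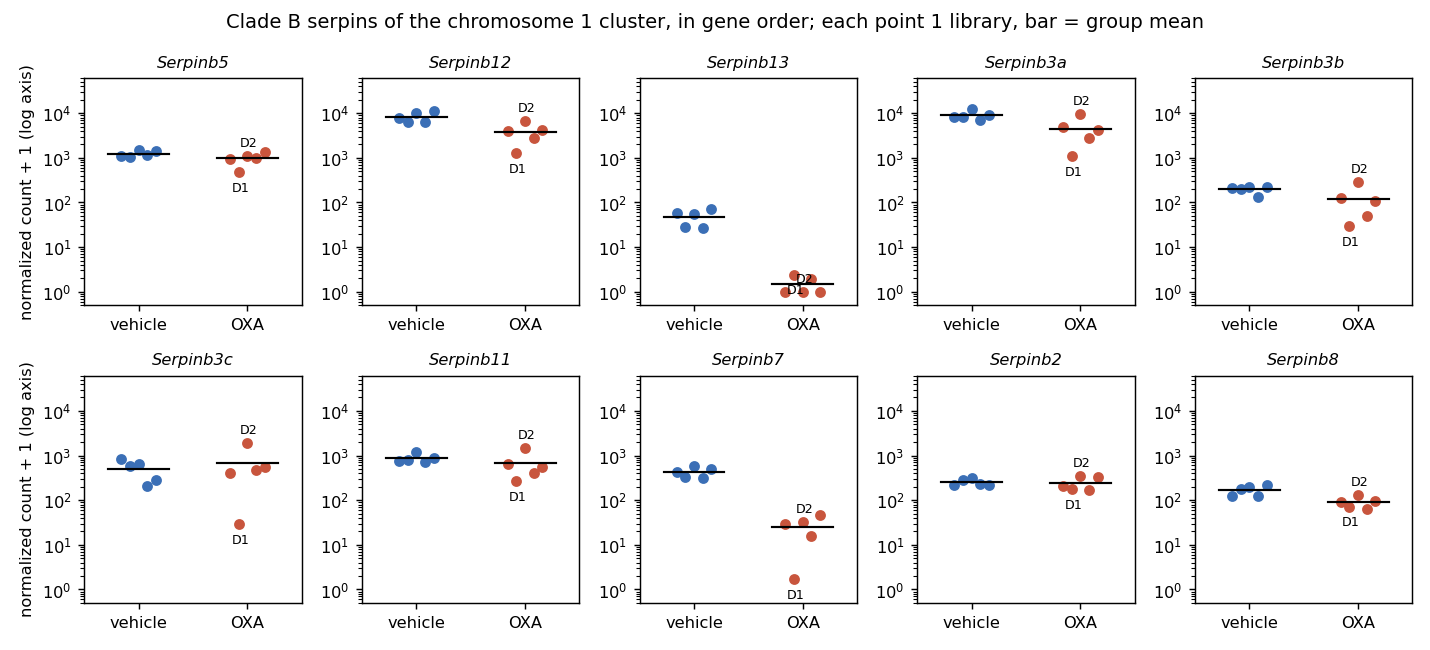
Normalized count + 1 (log axis) of the 10 tested chromosome 1 serpins, 1 point per library and a bar at each group's mean, with the OXA libraries D1 and D2 named. D1 is the lowest OXA library in 7 of the 10 genes and D2 the highest in 7, and only Serpinb13 and Serpinb7 separate the groups fully.

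D1 was the lowest OXA library for 7 of the 10 tested genes and D2 the highest for 7. Serpinb13, with reads in D1 and D3 alone among the OXA libraries, went against this, and D4 was the highest for 2 genes. D1 was the deepest OXA library, with 8364227 reads, and D2 the shallowest, with 3675479. The summed level of the 11 members was 16118 to 27529 in the vehicle libraries. It was 11270.5 in C1, 3439 in D1, 21474 in D2, 7691 in D3 and 11435 in D4. The cluster took 0.311% ± 0.0498 of a vehicle library's normalized total and 0.177% ± 0.0979 of an OXA library's (SD, n = 5 each). With D1 and D2 both left out, a setting chosen after the data were seen, 4 serpins rose and 9 fell, Serpinb11 and Serpinb3b being added to the 7.

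Markers of the suprabasal keratinocyte moved the same way. Of 8 such markers 7 fell and none rose, against 14.2% of all tested genes called lower, with a median change of -1.59 on the log2 scale. Krt13 was the marker that did not pass (adjusted p = 0.215). Their summed level was 652297 to 1111220.0 in the vehicle libraries, and none of the 8 was at 0. In the OXA group it was lowest in D1, at 207821, and highest in D2, at 549419, the same 2 libraries that bounded the serpin sum. Of 6 basal keratinocyte markers 1 rose and 2 fell, and their sum was 28331 to 39504 in the vehicle and 21898 to 46050 in the OXA libraries. The sum of 5 skeletal muscle markers was 97237 to 121405 in the vehicle libraries. In the OXA group it was highest in D1, at 167273, and lowest in D4, at 47860. The part of these markers in the fall of the chromosome 1 serpins was not tested.

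**Figure D3:**
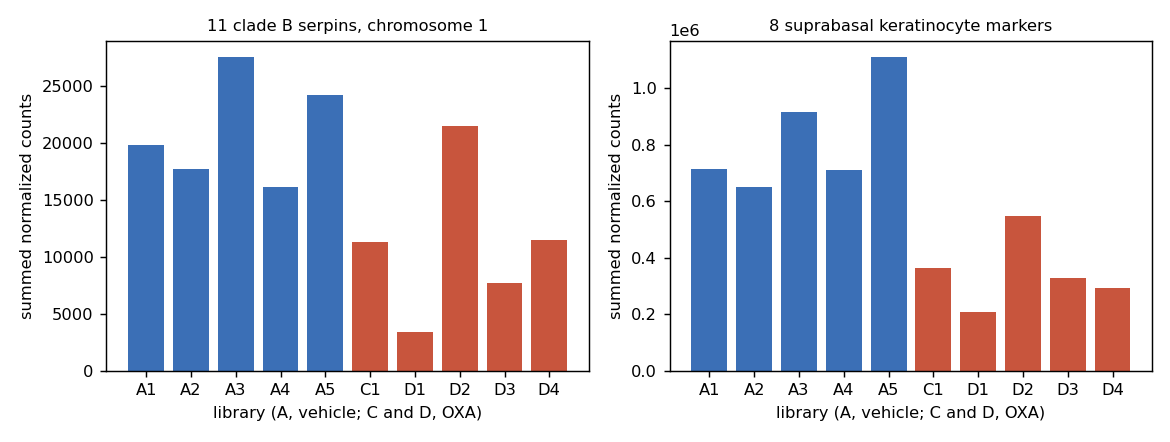
Summed normalized counts (y axes, from 0) of the 11 chromosome 1 serpins (left) and of 8 suprabasal keratinocyte markers (right), 1 bar per library, vehicle in blue and OXA in red. Among the OXA libraries D1 is lowest (3439 and 207821) and D2 highest (21474 and 549419) in both panels, and every OXA library is below every vehicle library in the right panel but not in the left, where D2 lies above 3 of them.

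Of the 3 nearest tested genes on each side of the cluster, 1 fell, against 14.2% of all tested genes called lower. This was Kdsr, which acts in sphingolipid synthesis and fell by 0.90 on the log2 scale (SE 0.30; adjusted p = 0.0365). Bcl2 and Vps4b on the same side and Cdh19, Dsel and Tsn on the other did not pass the test, with changes from -0.26 for Bcl2 to 0.68 for Cdh19. The last 3 are not close neighbours. The cluster ends at base 107610784, whereas Cdh19 starts at 110888026, Dsel at 111858402 and Tsn at 118294478.

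Promoters of this cluster were searched for 3 short words, because AP-1 factors act widely in keratinocyte genes and STAT factors carry cytokine signals. The words were TGANTCA for AP-1 and TTCNNNGAA and TTCNNNNGAA for STAT, with spacers of 3 and 4 bases. Each is its own reverse complement, so 1 search covers both strands, and no 2 matches in a serpin window overlapped. Windows of 250 bases before to 50 after a start site came from RefSeq (GRCm38.p6) and matched 52 of the 61 members by symbol. TGANTCA was found in 7.81% of all 32851 windows. In the chromosome 1 cluster it was found for 6 of 10 genes with a window, namely Serpinb5, Serpinb12, Serpinb11, Serpinb7, Serpinb2 and Serpinb8. It was found for 4 of 18 genes of the chromosome 12 cluster (Serpina1a, Serpina1b, Serpina1c and Serpina1d) and for 0 of 14 on chromosome 13. The windows of those 4 are near copies of one another, so their matches are not independent. On chromosome 1, genes that fell and genes that did not pass the test both held TGANTCA. Of the 4 that fell and had a window, 3 held it, and Serpinb3a did not. Serpinb13, which fell most, had no window and was not searched. A gene can have more than 1 window and was counted when any of them held the word. Counts of genes and shares of windows are therefore unlike measures.

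The 200 bases before the start site are given 5′ to 3′ for 3 genes that fell, Serpinb12, Serpinb7 and Serpinb8, and for Serpinb2, which did not pass. Capitals mark the words, TGANTCA in all 4 and TTCNNNNGAA in Serpinb7 as well.
Serpinb12 (chr1:106934249-106934448, + strand): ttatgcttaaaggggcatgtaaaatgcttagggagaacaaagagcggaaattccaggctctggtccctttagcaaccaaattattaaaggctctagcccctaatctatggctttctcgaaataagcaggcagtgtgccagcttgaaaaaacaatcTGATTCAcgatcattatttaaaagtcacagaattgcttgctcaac
Serpinb7 (chr1:107422489-107422688, + strand): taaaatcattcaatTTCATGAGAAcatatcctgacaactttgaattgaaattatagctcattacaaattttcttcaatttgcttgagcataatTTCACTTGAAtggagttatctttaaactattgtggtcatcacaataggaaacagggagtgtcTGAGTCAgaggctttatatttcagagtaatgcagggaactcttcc
Serpinb8 (chr1:107589806-107590005, + strand): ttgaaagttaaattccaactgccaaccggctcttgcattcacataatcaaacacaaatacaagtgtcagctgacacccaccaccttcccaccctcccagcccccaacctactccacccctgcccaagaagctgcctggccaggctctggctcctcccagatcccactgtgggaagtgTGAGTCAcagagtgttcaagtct
Serpinb2 (chr1:107511223-107511422, + strand): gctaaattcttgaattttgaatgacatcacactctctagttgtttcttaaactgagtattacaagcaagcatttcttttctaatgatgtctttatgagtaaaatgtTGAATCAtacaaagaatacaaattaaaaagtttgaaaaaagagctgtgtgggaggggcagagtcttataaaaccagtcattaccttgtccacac
The AP-1 word began 45 bases before the start in Serpinb12 and Serpinb7, 23 bases before it in Serpinb8 and 94 bases before it in Serpinb2. From another RefSeq start of Serpinb2 it lay 181 bases before, and the window of another Serpinb12 start held no match. The Serpinb7 start used by RefSeq lies inside the gene as the table draws it, and its stretch also held TTCNNNNGAA at 186 and 107 bases before the start. That word occurred in 6.95% of all windows and in no other window of the cluster. The word TTCNNNGAA was found for Serpinb2 alone in the cluster. A match describes letters in a window and shows no binding.

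In the clade B cluster of chromosome 13, Serpinb9 was the 1 gene of 6 tested that passed, or 16.7%, against 29.9% of all tested genes. Serpinb9 (ENSMUSG00000045827.10; chr13:33003250-33018257, + strand) inhibits granzyme B and protects cytotoxic and antigen-presenting cells from it. It was at 56.5, 29.2, 43.9, 47.8 and 44.4 in A1 to A5 and at 137, 88.1, 134, 119.7 and 159.6 in C1 and D1 to D4. Every OXA library was above every vehicle library. The mean rose 2.88-fold, with a change of 1.51 ± 0.21 (SE; adjusted p = 1.61e-04).

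Serpinb6a (chr13:33917618-34002794, − strand), an inhibitor of cathepsin G and trypsin-like proteases, was at 7449, 7994, 9289.7, 7495 and 7768 in A1 to A5. In C1 and D1 to D4 it was at 4807, 6915, 5599.7, 7849 and 3829.6. D3 lay within the vehicle range and the other 4 OXA libraries below it. The change was -0.50 ± 0.20 (SE; adjusted p = 0.0724). It passed the test without D3 (-0.63; adjusted p = 0.0337) or without D1 (-0.58; adjusted p = 0.0456), and with DESeq2 on all libraries (-0.46; adjusted p = 0.0481). The gene overlaps Nqo2, Ripk1 and the antisense gene 1110046J04Rik on the other strand, and the sources used here do not say whether the counting used strand.

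Serpinb1a, which inhibits neutrophil elastase and its relatives, averaged 1758 ± 371 in the vehicle and 2019 ± 239 in the OXA group (0.22 ± 0.16; adjusted p = 0.324). Its paralogs Serpinb1b (25.6 ± 10.3 to 20.8 ± 4.24; -0.22 ± 0.31; adjusted p = 0.642) and Serpinb1c (11.03 ± 2.34 to 8.69 ± 3.61; -0.38 ± 0.38; adjusted p = 0.482) did not pass either. Serpinb6b went from 102 ± 27.2 to 124 ± 70.5 (0.16 ± 0.31; adjusted p = 0.737). It stood highest in D2, at 241, and its change was -0.12 without that library. In the last 500 bases of their transcripts, 7.73% of 40-base words of Serpinb1a and 7.37% of those of Serpinb6b occur in another gene, and none of Serpinb9. The cluster as a whole took 0.148% ± 0.0107 of the vehicle and 0.132% ± 0.0268 of the OXA libraries. Outside the cluster, Tubb2a and Tubb2b rose, Mylk4 and Bphl fell, and Gmds and Wrnip1 did not pass, among the 3 nearest tested genes on each side.

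On chromosome 12, 4 of the 23 clade A members could be tested, Serpina3g and Serpina3m through their OXA libraries alone, so the count of calls among the 4 is no measure of the cluster. Serpina3n (ENSMUSG00000021091.8; chr12:104406729-104414629, + strand) is a secreted acute-phase inhibitor of granzyme B and leukocyte serine proteases. It was at 75.0, 72.0, 104, 104 and 132 in A1 to A5 and at 976, 1573, 369, 645 and 544 in C1 and D1 to D4. The lowest OXA library, D2, was above the highest vehicle library. The mean rose from 97.5 ± 24.6 to 822 ± 475 (SD, n = 5 each), 8.43-fold, with a change of 2.92 ± 0.32 (SE; adjusted p = 2.01e-05). D1, which was lowest for most chromosome 1 serpins, was highest for this gene.

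Serpina3g (Spi2A; ENSMUSG00000041481.16; chr12:104236245-104242239, + strand) lacks the secretion signal of its relatives and inhibits lysosomal cathepsins inside cells. It was at 1.03, 3, 7.80, 4.67 and 7.15 in A1 to A5 and at 33.6, 32.7, 25.4, 28.7 and 19.2 in C1 and D1 to D4. The groups did not overlap, and the mean was 5.90-fold higher with OXA, with a change of 2.49 ± 0.43 (SE; adjusted p = 6.71e-04). In the last 500 bases of its transcripts, 27.0% of 40-base words occur in another gene, chiefly Serpina3h, Serpina3f and Serpina3i, so part of its reads could belong to them.

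Serpina3m (ENSMUSG00000079012.11; chr12:104338486-104394557, + strand) was at 0 in A1, A2, A4 and A5 and at 1.95 in A3. In C1 and D1 to D4 it was at 12.98, 22.8, 7.24, 29.7 and 7.98. The groups did not overlap, and the vehicle group held 2 reads in all against 89. The depth-corrected ratio was 53.7, with a 95% exact interval of 14.4 to 450 for counting error. The change was 3.59 ± 0.59 (SE; adjusted p = 4.84e-04). Its table entry overlaps Serpina3k by 7959 bases on the same strand, and Serpina3k held reads in C1 alone, at 2.29.

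Serpina9 (centerin; ENSMUSG00000058260.2; chr12:103994443-104013755, − strand), known from germinal centre B cells, moved the other way. It was at 107, 87.8, 181, 77.9 and 126 in A1 to A5 and at 21.4, 3.55, 28.97, 6.70 and 20.8 in C1 and D1 to D4. Every OXA library was below every vehicle library, and D1 was the lowest. The mean was 7.13-fold lower, with a change of -3.01 ± 0.46 (SE; adjusted p = 2.99e-04).

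**Figure D4:**
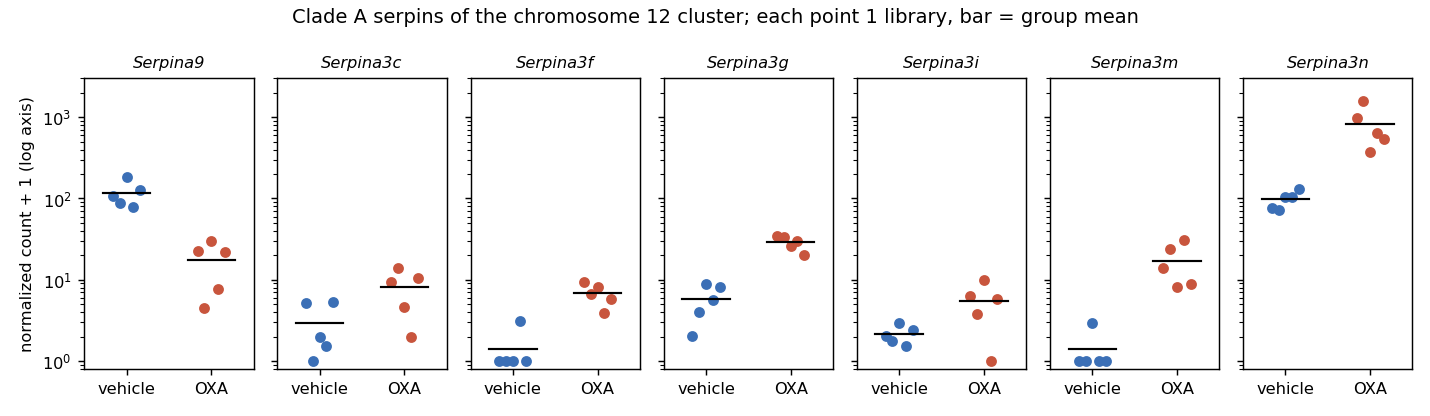
Normalized count + 1 (log axis) of the 4 tested chromosome 12 serpins and of Serpina3c, Serpina3f and Serpina3i, which were under the filter, 1 point per library and a bar at each group's mean. All 5 OXA libraries lie below the vehicle libraries for Serpina9 and above them for Serpina3f, Serpina3g, Serpina3m and Serpina3n.

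A further 9 clade A members had reads but stayed under the filter. Serpina3f was at 0 in 4 vehicle libraries and at 2.08 in A4, and at 8.40, 5.69, 7.24, 2.87 and 4.79 in C1 and D1 to D4. With the filter lowered to a mean of 1 its change was 2.38 ± 0.50 (SE; adjusted p = 0.0027), and 8.57% of its 40-base words occur in another gene. Serpina3c ranged from 0 to 4.29 in the vehicle and from 0.96 to 12.8 in the OXA group (adjusted p = 0.118 at that filter). Serpina3i ranged from 0.52 to 1.95 and from 0 to 9.05 (adjusted p = 0.228). Serpina1d, Serpina1e, Serpina11, Serpina12, Serpina3j and Serpina3k held no more than 7.24 in any library. The other 11 clade A members, among them the antitrypsin genes Serpina1a, Serpina1b and Serpina1c and the hormone carriers Serpina6 and Serpina7, were at 0 throughout. A 0 is compatible with up to 3 reads per library, on average 2.82 normalized counts in the vehicle and 3.50 in the OXA libraries. However, 61.7% of the 40-base words of Serpina1a, 46.9% of Serpina1c and 31.2% of Serpina1b occur in another gene. If reads matching 2 genes were not counted, the limit would not hold for such genes.

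The clade A genes together took 0.0033% ± 0.000674 of a vehicle library and 0.015% ± 0.00835 of an OXA library (SD, n = 5 each). Their sum was 164 to 300.1 in the vehicle libraries and 458 to 1658 in the OXA libraries. Clade A serpins are best known from liver, and 0 of 6 hepatocyte markers reached the filter. The hepatocyte sum was 0 to 4.11 in the vehicle and 1.53 to 4.79 in the OXA libraries, with Cps1 at 0 in all 10. Markers of several leukocyte types rose with OXA: 6 of 6 macrophage markers, 5 of 6 T cell markers, all 4 tested markers of natural killer and cytotoxic cells (of 6), and 3 of 4 tested neutrophil markers (of 7) rose, against 15.7% of all tested genes. Of these, Cd3g, Gzma, Gzmb and Prf1 averaged under 5 in the vehicle group and were tested through their OXA libraries. Of 5 tested mast cell markers (of 6), 1 rose and 4 did not pass. The sum of the mast cell markers was 81.8 to 146 in the vehicle and 96.7 to 324 in the OXA libraries. That list did not hold Mcpt1 and Mcpt2, mast cell proteases by name. Both rose, were tested through their OXA libraries, and are counted with the granule proteases below. The summed macrophage level was 1150.4 to 2127 in the vehicle and 2688 to 5158 in the OXA group, and that of the T cell markers 34.3 to 107 and 299 to 338. The sum for natural killer and cytotoxic cells was 6.00 to 31.1 and 158 to 288, and for neutrophils 329 to 435 and 1167 to 4952. Of the neutrophil granule genes, Elane and Mpo were at 1.03 and 2.87 at most. No marker of these 5 leukocyte lists was at 0 throughout. Their part in the rise of Serpinb9 and the Serpina3 genes was not tested.

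The TTCNNNGAA word was found in 8.30% of all windows and in 5 of the 18 chromosome 12 genes with a window. These were Serpina11, Serpina1f, Serpina3f, Serpina3g and Serpina3i. The letters around it are much alike in Serpina3f, Serpina3g and Serpina3i, so those matches are not independent. The 200 bases before the start site of Serpina3g, which rose, and of its neighbour Serpina3f are shown with that word in capitals.
Serpina3g (chr12:104235947-104236146, + strand): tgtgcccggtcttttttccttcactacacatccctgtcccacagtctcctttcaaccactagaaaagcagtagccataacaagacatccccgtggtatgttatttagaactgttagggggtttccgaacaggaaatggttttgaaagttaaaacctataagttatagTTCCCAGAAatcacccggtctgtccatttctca
Serpina3f (chr12:104214344-104214543, + strand): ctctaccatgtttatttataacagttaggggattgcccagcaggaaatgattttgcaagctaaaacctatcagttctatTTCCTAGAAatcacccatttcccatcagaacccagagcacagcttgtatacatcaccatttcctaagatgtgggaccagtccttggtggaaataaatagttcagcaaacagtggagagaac
The word began 33 bases before the start in Serpina3g and 121 bases before the start shown for Serpina3f. From another RefSeq start of Serpina3f it lay 210 bases before. The window of Serpina3n, the other chromosome 12 gene that rose and had one, did not hold these letters. Among the 3 nearest tested genes on each side of the cluster, Glrx5 rose (0.94 ± 0.16, SE; adjusted p = 7.52e-04), and Ifi27, Ifi27l2a, Ppp4r4, Dicer1 and Clmn did not pass the test.

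Outside the 3 large clusters 1 gene passed the test. Serpinf1 (PEDF; ENSMUSG00000000753.15; chr11:75409469-75422701, − strand), a secreted factor that restrains vessel growth, was at 599.9, 573, 1034, 530.2 and 982 in A1 to A5. It was at 479, 382, 509, 291 and 223 in C1 and D1 to D4. Every OXA library was below every vehicle library, with D2 and A4 the nearest. The mean was 1.97-fold lower, with a change of -0.98 ± 0.25 (SE; adjusted p = 0.00927). Its neighbour Serpinf2, the plasmin inhibitor, reached 3.75 in A2 and was at 0 in all OXA libraries.

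Of the inhibitors of thrombin and of plasminogen activators described here, none passed the test. Serpine2 (protease nexin; chr1:79793897-79861180, − strand) was at 420.1, 467, 403, 324 and 383 in A1 to A5 and at 339, 485, 241, 403 and 273 in C1 and D1 to D4. Its highest and its lowest library were both OXA libraries, and the change was -0.23 ± 0.19 (SE; adjusted p = 0.367). Serpini1 (neuroserpin; chr3:75557547-75643795, + strand) was at 36.0, 44.2, 44.8, 51.4 and 45.8 and at 25.9, 32.7, 19.9, 11.5 and 51.1. In D4 it was near the top of the vehicle range and in the other 4 OXA libraries below it (-0.79 ± 0.33, SE; adjusted p = 0.0875), and without D4 it passed the test (-1.03; adjusted p = 0.0187). Serpine3 ranged from 0 to 4.11 in the vehicle group and was above 0 in D1 alone among the OXA libraries.

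Serping1, the inhibitor of complement C1 and of the contact system (chr2:84765087-84775444, − strand), was at 2111, 1992, 2913, 2296 and 3032 in A1 to A5. It was at 3227, 2821, 3179, 2389 and 2371 in C1 and D1 to D4. The ranges overlapped, and the change was 0.19 ± 0.16 (SE; adjusted p = 0.412). Serpinh1 (Hsp47; chr7:99345076-99353239, − strand), the collagen chaperone of the endoplasmic reticulum, was at 704, 667, 935, 616 and 907 and at 983, 929.7, 773, 645 and 682. Here too the ranges overlapped, with a change of 0.07 ± 0.16 (SE; adjusted p = 0.788). The liver-made thrombin inhibitors Serpinc1 (antithrombin) and Serpind1 (heparin cofactor) held at most 4.15 and 1.56.

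In clade B, Serpinb3d, Serpinb9b, Serpinb9e and Serpinb6c stayed under the filter. Serpinb6c reached 10.9 in D2 and the other 3 no more than 2.87. A further 6 clade B genes and Serpini2 of clade I were at 0 throughout. All 61 serpins together made up 0.529% ± 0.0628 of a vehicle library and 0.396% ± 0.0810 of an OXA library (SD, n = 5 each).

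Of 63 listed proteases that serpins act on, 48 could be tested, 23 rose and 10 fell, with a median change of 0.60 on the log2 scale against -0.01 over all tested genes. The background was 15.7% called higher and 14.2% called lower. However, 8 of the 23 that rose averaged under 5 in the vehicle group and were tested through their OXA libraries. They were F10, Gzma, Gzmb, Gzmk, Klk6, Mcpt1, Mcpt2 and Plau, and they add to the count of rises. Genes tested through their vehicle libraries alone were not counted, so the net lean of the count and the median was not established. Among the leukocyte granule proteases 6 of 8 tested rose, 5 of them tested through their OXA libraries. Granzyme A (Gzma) went from 2.43 ± 1.73 to 98.7 ± 45.5 (4.87 ± 0.41, SE; adjusted p = 2.13e-06). Mcpt2, a chymase-type granule protease, was at 0 in all vehicle libraries and averaged 71.4 ± 34.1 in the OXA group, at least 25.3-fold above the mean limit of 3 reads per library (adjusted p = 3.20e-06). Granzyme B, the target of Serpinb9 and Serpina3n and named here after its values were seen, went from 3.89 ± 4.26 to 62.6 ± 17.8 (4.13 ± 0.55; adjusted p = 9.13e-05).

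Of 7 lysosomal cysteine proteases 4 rose and none fell. For this and the counts below, the background was 15.7% of all tested genes called higher and 14.2% called lower. Cathepsin S (Ctss) went from 510.1 ± 102 to 2539 ± 534 (2.31 ± 0.18, SE; adjusted p = 9.13e-07). Cathepsins L and K, known targets of Serpinb13 and named after their values were seen, did not pass the test, with changes of -0.24 for Ctsl (adjusted p = 0.357) and -0.06 for Ctsk (adjusted p = 0.868). Of 23 trypsin-like proteases of the epithelium 8 rose and 8 fell. The kallikrein Klk6 went from 2.15 ± 2.25 to 147 ± 60.1 (5.73 ± 0.48, SE; adjusted p = 2.13e-06). In the plasminogen group Plau, the target of Serpinb2, and Plat rose by 2.17 (adjusted p = 0.0163) and 0.78 (adjusted p = 0.0296), and both were named after their values were seen. Of 3 tested complement proteases 2 rose.

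Protease inhibitors of other families were counted for comparison. Of 56 listed, 54 were in the table and 27 tested, 5 rose and 9 fell, with a median change of -0.13. That made 51.9% called, against 29.9% of all tested genes and 42.3% of the tested serpins, a difference that was not tested. Of the 5 that rose, Spink12 and Stfa2l1 averaged under 5 in the vehicle group and were tested through their OXA libraries. These 2 genes add to the count of rises. Genes tested through their vehicle libraries alone were not counted, so the net lean of the count and the median was not established. The WAP-domain genes Wfdc2 (-2.30 ± 0.18, SE; adjusted p = 1.20e-06) and Wfdc15b (-3.81 ± 0.54; adjusted p = 1.57e-04) fell. The metalloprotease inhibitor Timp1 (3.95 ± 0.57; adjusted p = 1.78e-04) and the stefin Stfa2l1 (3.23 ± 0.60; adjusted p = 0.00124) rose.

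Genes that work with Serpinh1 were listed as well, 22 in all and all tested. Of them 7 rose and 1 fell, with a median change of 0.37, so that 36.4% were called, near the 29.9% of all tested genes. Among the collagen chains, 6 of 10 rose and 1 fell, against 15.7% of all tested genes called higher and 14.2% called lower. Col3a1 went from 7969 ± 1946 to 18382 ± 4769 (1.196 ± 0.249, SE; adjusted p = 0.00257). Col5a2 (0.997 ± 0.169; adjusted p = 5.98e-04) and Col6a3 (0.77 ± 0.17; adjusted p = 0.00363) also rose. Of the 12 genes for collagen folding and export, Mia3, a receptor for collagen export, rose (0.87 ± 0.18; adjusted p = 0.00263) and 11 did not pass. Whether the change of Serpinh1 differed from that of the collagen chains was not tested.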

How the data were processed

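RNA of whole esophagus was measured in 5 vehicle and 5 OXA libraries, grouped by the treatment given in the labels. The deposited table holds a signal for each gene in each library. Every value was a whole multiple of 1 step per library, and division by that step returned whole numbers for 100% of values (tolerance 0.006), so the authors had divided counts by a size factor. The build GRCm38, DESeq2 1.18.1, HTSeq 0.11.2, TopHat2 2.1.0, also Bowtie2 2.2.6, cutadapt 1.10, Trim Galore and FastQC 0.11.5 were in use per the submitters' processing notes, which give no order. The sources used here do not give the annotation release, the strand setting or any use of molecular identifiers. Without such identifiers several reads can stem from 1 molecule, so intervals and limits cover counting error only.

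The values were tested as log2(value + 1) with limma 3.58.1 and a variance trend (R 4.3.3) for genes with a mean of at least 5, adjusted over all 14712 genes. Fold changes on that scale understate the change of low genes. The alternatives used edgeR 4.0.16 and DESeq2 1.42.0 on the recovered reads, other pseudocounts, filters and scalings, each library left out, and a replicate block. The test was also run on simulated data with known changes in far fewer genes than were called here. The outcome of that run is not reported here, so it gives no support to these calls.

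Members and lists were chosen with earlier results of these data known, so nothing here is independent support for them. All tested members but 1, which is not reported here, were named with their change. Values per library were given for called members and for the 3 highest of each clade that could be tested, and of each other list up to 4 tested genes with the smallest p were named.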

Additional observations from a re-analysis of the deposited data

Results flagged for a closer look

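In 52 groups of 5 libraries (26 tested serpins in 2 groups each), the highest or lowest library was compared with its nearest neighbour as a share of the group's range, with a limit of 0.71. Chance passes this limit in about 1 in 20 groups, and 2 groups passed it. Serpina3m in vehicle library A3 was at 1.95 normalized counts, with the other vehicle libraries at 0. Serpinb3c in OXA library D2 was at 1883, with the other OXA libraries between 28.4 and 560.3.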

How the results depend on the processing

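Of the 11 serpins called, 8 kept their call and direction under every alternative that could be run for them, 24 for Serpina3m and 25 for the others. The exceptions were Serpinb3a and, under the replicate block alone, Serpinb12 (adjusted p = 0.0646) and Serpinb8 (adjusted p = 0.0545). The count of serpins called higher was 3 to 5 throughout. The count called lower was 11 without the 3 shallowest libraries, which added Serpinb11, Serpinb2, Serpinb3b and Serpini1. The block on the title digit (8 libraries) left 4 serpins called lower, and over all genes 1427 higher and 1084 lower. The same 8 libraries without the block, a setting chosen after the data were seen, gave 6 serpins lower and 1707 and 1417 genes. Deviations from the group means of same-digit libraries correlated at 0.19, -0.234, -0.132 and 0.012. The meaning of the digit is unknown here, and these values cannot settle whether it marks a pairing.

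Signs turned only for members that did not pass the test. Serpinb2 was at 0.021 with CPM scaling and ranged from -0.25 to 0.0045 with 1 library left out. Serpinb3c was at 0.39 with edgeR, 0.40 with DESeq2 and 0.074 without D1 and D2, and ranged from -0.93 to 0.57 with 1 library left out. Serpinb6b was at -0.26 without D1 and D2 and ranged from -0.12 to 0.36. Serpine2 was at 0.016 without the 3 shallowest libraries. Serpinh1 ranged from -0.010 to 0.14. The cause of these shifts was not tested. Depth limits the 17 serpins under the filter, which held few reads.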
